A study of Mus musculus with 40 samples.

Results

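The Hox genes were taken as every gene symbol of the array's probe annotation that consists of Hox, a cluster letter from a to d and a paralogue number. This rule found 38 genes carried by 50 probes, out of 16593 named genes and 25697 probes in all. Clusters a and b each gave 10 genes, and clusters c and d each gave 9. By paralogue number, 7 genes belonged to groups 1 to 3 (called anterior here), 15 to groups 4 to 8 (central) and 16 to groups 9 to 13 (posterior). All 38 were matched by gene ID to the RefSeq annotation of the mouse. For 9 genes there was more than 1 probe, and the probe with the highest mean over all arrays then stands for the gene unless another is named.

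Hox genes encode homeodomain transcription factors that give cells their position along the head-to-tail axis. They lie in 4 clusters, and the order of the genes within a cluster follows the order in which they are switched on and the place along the body where their expression begins. In the head, Hox expression reaches forward into the hindbrain and into the neural crest of the second and more posterior branchial arches, whereas forebrain, midbrain, face and eye derive from tissue in front of the Hox domains. Silencing of Hox genes outside their domains depends on Polycomb complexes, which act on histone H3.

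Gene expression had been measured on Illumina MouseRef-8 BeadChips in a mouse line with small eyes, Aey69, and in wild-type controls (Ctrl), with the purpose of finding genes that differ while the eye forms. Aey69 is a dominant line from ENU mutagenesis on the C3HeB/FeJ background with a missense mutation in *Hist2h3c1*, a gene for histone H3.2, and the study's methods describe homozygous mutants. The mutation is present in all tissues, so the groups do not isolate an effect within the eye. The labels name whole embryos at E9.5, heads at E10.5 and E11.5, the eye region at E12.5 and the eye at E13.5, with another label field giving eye region for E13.5. Each Aey69 group held 4 arrays, except the eyes with 3. Of the Ctrl groups, both sets of heads held 4 arrays and the embryos, eye regions and eyes 3 each. These 36 arrays were those kept by the authors of 40 deposited, and the 4 marked as excluded entered only an alternative. The paper gives quality issues as the reason for leaving out the Ctrl embryo of E9.5 and the Ctrl eye of E13.5. For the Ctrl eye region of E12.5 and the Aey69 eye of E13.5 it gives unusual patterns of eye marker genes, perhaps from wrong staging. The 3 kept E13.5 controls carry E12.5 in other label fields, and their titles and ages, which give E13.5, were followed. Nothing in the labels says whether a sample held 1 embryo or several, so the p-values measure the spread between these samples.

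Between 44.62% and 54.92% of all probes were detected on each array. A probe was counted as detected on an array at a detection p under 0.05, and a gene as detected in a group when this held on at least 2 of 3 or 3 of 4 arrays. Signals are given as log2 of the quantile-normalized intensity, and they compare the same probe between arrays, not different genes with each other. The values of a group follow the order of its array numbers. Whether groups overlap is stated as a description of the values printed and was not counted over all genes. Differences were tested with limma at a false discovery rate of 10% over all probes, and a gene had to be detected in at least 1 of the groups compared. Of 4 markers of the heart (*Myl7*, *Nppa*, *Myh6* and *Myh7*), all were detected on 7 of the 8 E10.5 heads and 3 on the other, with summed normalized signals of 2284 to 3155 in Aey69 and 2248 to 4376 in Ctrl, against 75.06 to 86.5 in the Aey69 heads at E11.5. The Ctrl head numbered 4 at E11.5 stood apart, with all 4 heart genes detected and a sum of 1565, while the other 3 Ctrl heads had sums of 81.19 to 85.72. Among the Aey69 eye regions at E12.5, the array numbered 4 detected 3 heart genes at a sum of 539.3, against 89.11, 101.3 and 135.4 on the others. The label head at E10.5 therefore covered samples with heart RNA.

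Of the 38 Hox genes, 28 were detected in at least 1 group and 10 in none (*Hoxa3*, *Hoxa6*, *Hoxa10*, *Hoxa11*, *Hoxb8*, *Hoxb9*, *Hoxb13*, *Hoxc5*, *Hoxc11* and *Hoxc12*). In whole embryos at E9.5, 20 Hox genes were detected in Aey69 and 22 in Ctrl, or 52.6% and 57.9% of the family, against 51.1% and 54.2% of all named genes. In heads at E10.5 the count was 23 in both genotypes, or 60.5%, against 53.3% of all genes in Aey69 and 53.6% in Ctrl. From E11.5 on the counts were far smaller. Heads at E11.5 gave 6 in Aey69 (15.8%) and 12 in Ctrl (31.6%), eye regions at E12.5 gave 12 in Aey69 (31.6%) and 10 in Ctrl (26.3%), and eyes at E13.5 gave 14 in Aey69 (36.8%) and 12 in Ctrl (31.6%). Over the same groups 52.4% to 57.9% of all genes were detected, the lowest share in the Aey69 heads at E11.5. Only *Hoxa13* and *Hoxb2* were detected in every group.

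**Figure D1:**
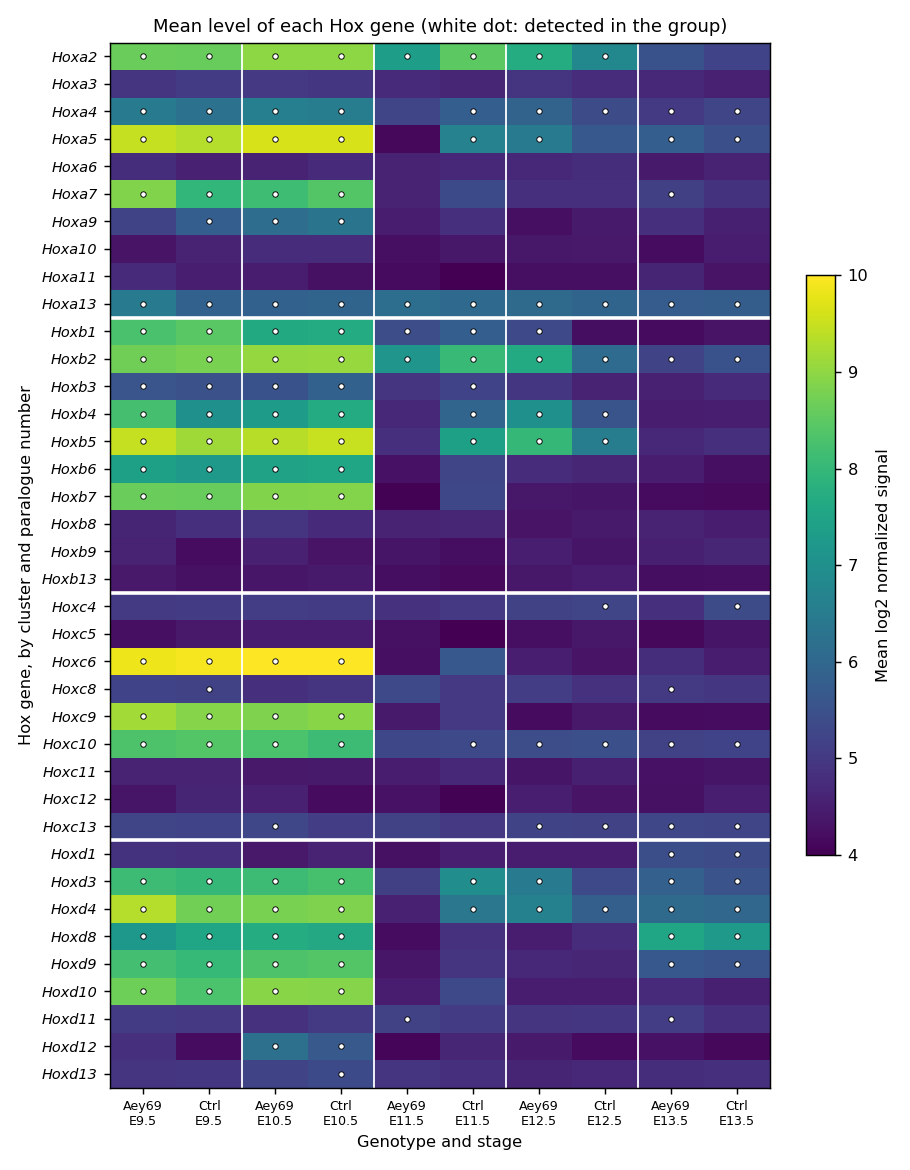
Mean log2 normalized signal of the 38 Hox genes (rows, by cluster and paralogue number) in the 10 groups (columns, by stage, Aey69 left of Ctrl), with a white dot where its brightest probe was detected. Most dots lie at E9.5 and E10.5, where 20 to 23 genes were detected in a group, and few genes carry one at E11.5.

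The detected genes were also counted along the clusters. In the E10.5 heads of both genotypes, 5 anterior, 10 central and 8 posterior genes were detected. In the E11.5 heads, Aey69 had 4 anterior, 0 central and 2 posterior genes, and Ctrl had 5 anterior, 5 central and 2 posterior genes. At E12.5 the counts were 4 anterior, 5 central and 3 posterior in Aey69, and 2, 5 and 3 in Ctrl. At E13.5 they were 3, 6 and 5 in Aey69, and 3, 5 and 4 in Ctrl. The arrays are of whole tissue pieces, in which fewer cells with a Hox transcript and less transcript in each cell cannot be told apart.

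The upstream sequences of 3 genes on which the later results turn are given first. *Hoxb1* sets the identity of the rhombomere that gives rise to the facial motor neurons, *Hoxa2* patterns the second branchial arch and the anterior hindbrain, and *Hoxd8* is a central gene of cluster d. The 250 bases before each start of transcription are from RefSeq on build GRCm38.p6 and run 5′ to 3′ on the strand of the gene, in lower case. Capitals mark a match to TGATNNAT, a form of the site that Hox proteins share with their PBX partners, or to its other strand ATNNATCA. They are shown because autoregulatory Hox sites are the textbook route by which *Hoxb1* holds its own expression.
Hoxb1: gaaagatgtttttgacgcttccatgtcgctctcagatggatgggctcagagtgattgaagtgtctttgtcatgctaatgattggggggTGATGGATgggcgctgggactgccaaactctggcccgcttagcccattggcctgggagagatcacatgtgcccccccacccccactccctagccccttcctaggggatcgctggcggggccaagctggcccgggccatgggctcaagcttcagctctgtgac
Hoxa2: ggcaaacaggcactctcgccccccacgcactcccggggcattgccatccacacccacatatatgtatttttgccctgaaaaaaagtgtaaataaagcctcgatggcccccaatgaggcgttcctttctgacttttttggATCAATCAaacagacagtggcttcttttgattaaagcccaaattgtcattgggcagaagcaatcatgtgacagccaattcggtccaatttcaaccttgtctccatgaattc
Hoxd8: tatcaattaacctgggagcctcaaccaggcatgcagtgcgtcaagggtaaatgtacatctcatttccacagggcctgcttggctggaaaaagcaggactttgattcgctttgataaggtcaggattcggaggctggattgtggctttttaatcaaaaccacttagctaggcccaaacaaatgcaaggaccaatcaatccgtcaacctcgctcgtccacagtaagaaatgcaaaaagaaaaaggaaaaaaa

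The *Hoxb1* sequence is at chr11:96365508-96365757 on the plus strand, the *Hoxa2* sequence at chr6:52164832-52165081 on the minus strand and the *Hoxd8* sequence at chr2:74704365-74704614 on the plus strand. The match in *Hoxb1* (TGATGGAT) begins 162 bases before the start and that in *Hoxa2* (ATCAATCA) 111 bases before it, while the *Hoxd8* window holds none. Among the 22 Hox genes with a promoter in the table, 4 (18.2%) held a match, the other 2 being *Hoxb8* and *Hoxd11*. A Hox gene was counted when any of its promoters matched, and *Hoxa10* and *Hoxd11* have several. The share over all 32851 promoters of this length, counted by promoter and not by gene, was 7.68%. A match describes the letters of the window and not the binding of a factor.

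The signals of single genes at E9.5 are given for a few of those detected on every array. *Hoxa5*, which acts in the lung and shoulder region, had log2 signals of 9.42, 9.33, 9.67 and 9.43 in the Aey69 embryos at E9.5, against 9.51, 9.19 and 9.28 in the Ctrl embryos. *Hoxb5*, which helps to place the forelimb, had 9.54, 9.23, 9.51 and 9.60 in Aey69, against 9.10, 9.11 and 9.2 in Ctrl. All 4 Aey69 embryos exceeded the 3 Ctrl embryos for *Hoxb5*, but the difference of 0.33 did not pass the test (adjusted p = 0.638). *Hoxc6*, a gene of the forelimb and upper thoracic level, had 9.82, 9.86, 9.996 and 9.70 in Aey69, against 10.14, 9.66 and 9.95 in Ctrl, and *Hoxd4*, a gene of the posterior hindbrain and neck vertebrae, had 9.08, 9.0, 9.86 and 9.43, against 8.76, 8.69 and 8.68 in Ctrl. The genotypes overlapped for *Hoxc6* and not for *Hoxd4*.

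No Hox gene differed between the genotypes at E9.5, where the background was also 0% (0 of 9127 genes tested). At an unadjusted p under 0.05, 5 of 22 detected Hox genes were higher in Aey69, *Hoxa7*, *Hoxa13*, *Hoxb4*, *Hoxb5* and *Hoxd4*, beside 7.24% of all genes, and none was lower. *Hoxb4*, a gene of the neck vertebrae, had the smallest p, at 7.84, 7.61, 9.19 and 8.30 in Aey69 against 7.23, 7.26 and 6.51 in Ctrl, which gave a log2 difference of 1.24 ± 0.35 (SE) and an adjusted p of 0.638. *Hoxd4* was 0.63 ± 0.21 at the same adjusted p. In the other direction stood *Hoxd8*, with a log2 difference of -0.34 (adjusted p = 0.638), and *Hoxa9*, with -0.57 (adjusted p = 0.662). The median over the detected Hox genes was 0.12, against 0.02 over all genes. The third of the Aey69 embryos in these lists, array 4, stood apart. It had a summed signal of red-cell globin genes of 8431, against 44590 to 49110 in the other 3, a heart gene sum of 1343, against 3340 to 3897, and the lowest share of detected probes, 44.62%, and it carried the highest values of *Hoxb4* and *Hoxd4*. Without it, 3 of 23 genes were higher at an unadjusted p under 0.05, *Hoxa7*, *Hoxb4* and *Hoxd4*, beside 6.1% of all genes, with *Hoxb4* at 0.92 and *Hoxd4* at 0.46 (adjusted p = 0.735 each). The part of red cells and heart in these values was not tested.

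In heads at E10.5 the Hox genes again did not differ between the genotypes, with 0 of 24 calls beside 0% of all genes, and no Hox gene reached an unadjusted p under 0.05, which 1.48% of all genes did. The smallest p values belonged to *Hoxd12* (0.53) and *Hoxc13* (0.17) in one direction and to *Hoxb3* (-0.35) and *Hoxb4* (-0.37) in the other, as log2 differences with an adjusted p of 1 each. *Hoxc6* had 10.26, 10.23, 9.41 and 10.15 in Aey69, against 10.01, 10.14, 9.97 and 9.93 in Ctrl, and *Hoxa5* had 9.76, 9.57, 9.42 and 9.77, against 9.70, 9.59, 9.65 and 9.65. *Hoxd10*, which acts in the hindlimb and lumbar spinal cord, had 9.16, 8.70, 8.54 and 9.36 in Aey69, against 9.10, 9.05, 8.62 and 8.85 in Ctrl. *Hoxc6* and *Hoxd10* are genes of the trunk, and their signals in samples labelled head stood beside the heart genes named above and beside markers of trunk mesoderm (summed signal 1496 to 2070 in Aey69 and 1487 to 2201 in Ctrl).

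The step from whole embryos at E9.5 to heads at E10.5 changes tissue as well as stage, and only a few Hox genes differed across it. *Hoxd12*, a gene of the digits, was detected on none of the E9.5 arrays, with log2 signals of 6.24, 6.39, 5.99 and 6.21 in the Aey69 heads at E10.5, against 5.16, 4.22, 4.92 and 5.04 in the Aey69 embryos at E9.5. It was higher at E10.5 in Aey69 by 1.37 ± 0.31 (adjusted p = 0.0398, at least 1.91-fold) and in Ctrl by 1.48 ± 0.33 (adjusted p = 0.0132, at least 1.43-fold). Here and below, "at least" stands for a gene detected on no array of 1 group, whose mean there was replaced, array by array, by the lowest signal among detected probes where that was higher. *Hoxd12* was the 1 call among 23 genes in Aey69, where 2.26% of all genes were higher. It entered the test through E10.5 alone, where it was high, and nothing is read from this share. The *Hoxd12* call was lost without Aey69 array 3 of E9.5 (adjusted p = 0.144), without Aey69 array 3 of E10.5 (adjusted p = 0.114) and with the excluded arrays in the fit (adjusted p = 0.519).

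In Ctrl, *Hoxa9*, which acts in the upper limb, joined *Hoxd12* to give 2 of 24 higher beside 2.53% of all genes, at 1.15 ± 0.35 on 1 of its 3 probes with an adjusted p of 0.0803, while the others gave 0.50 (adjusted p = 0.587) and -0.25 (adjusted p = 0.673). The called probes of *Hoxd12* and *Hoxa9* passed the detection rule in Ctrl at E10.5 only, where they were high, so nothing is read from this share. *Hoxb1* was lower in Ctrl, the 1 such gene of 24 beside 5% of all genes, by a log2 difference of -0.87 ± 0.27 on its dimmer probe (adjusted p = 0.0865). Its brighter probe had 7.95, 7.18, 7.81 and 7.83 in the Ctrl heads at E10.5, against 8.43, 8.41 and 8.52 in the Ctrl embryos at E9.5. The same probes in Aey69 gave 0.99 for *Hoxa9* (adjusted p = 0.135) and -0.80 for *Hoxb1* (adjusted p = 0.12), which did not pass. With the excluded arrays in the fit, the *Hoxb1* difference in Ctrl was 0.13. Both Ctrl calls were lost in some fits that left out 1 array. With Ctrl array 5 of E9.5 left out, for example, *Hoxa9* was at 0.78 (adjusted p = 0.545) and *Hoxb1* at -0.78 (adjusted p = 0.352). The genotypes did not differ in this step at the false discovery rate of 10% for any of 25 Hox genes (0.0209% of all genes did), and 2 were lower at an unadjusted p under 0.05, *Hoxa13* and *Hoxb4*, beside 3.82% of all genes.

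Between E10.5 and E11.5, both labelled head, most of the Hox genes that could be tested fell. In Aey69, 21 of the 24 tested were lower at E11.5, against 15.8% of all genes tested, and in Ctrl 20 of 23, against 6.93%. No Hox gene was higher in either genotype, and the rest of the 38 were detected at neither stage. Of the genes tested, 18 in Aey69 and 11 in Ctrl were detected at E10.5 only and entered the test through that stage, where their signal was the higher one. The mean over all 38 genes, which does not depend on detection, was 4.78 at E11.5 against 6.62 at E10.5 in Aey69, and 5.31 against 6.63 in Ctrl. The heart genes fell with them, all 4 in both genotypes, as did the trunk mesoderm genes *Meox1* (log2 difference -3.67 in Aey69 and -3.15 in Ctrl), *Meox2* (-1.81 and -1.50) and *Tcf15* (-1.83 and -1.49). The part of these tissues in the fall of the Hox genes was not tested.

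The largest differences in Ctrl were at central and posterior genes. *Hoxc6* had 4.44, 4.12, 4.58 and 3.83 in the Aey69 heads at E11.5, none of them detected, a difference of -5.77 ± 0.66 from E10.5 (adjusted p = 4.41e-07, at least 28-fold). In Ctrl it had 4.0, 4.32, 9.92 and 4.38, where only array 4 was detected, at the level of the E10.5 heads (-4.36 ± 0.66, adjusted p = 5.63e-05). Without that array the Ctrl difference was -5.78. *Hoxb7*, a thoracic gene, differed by -4.83 in Aey69 (at least 12.6-fold, adjusted p = 2.22e-07) and -3.60 in Ctrl (adjusted p = 3.32e-05). Its Ctrl signals of 4.09, 4.32, 8.45 and 4.31 again set array 4 apart.

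Among posterior genes, *Hoxc9*, which specifies thoracic motor neurons, differed by -4.42 in Aey69 (at least 12.52-fold, adjusted p = 4.00e-08) and -3.92 in Ctrl (adjusted p = 8.84e-07). *Hoxc10*, a gene of lumbar motor neurons, gave -4.25 in Aey69 (at least 10.3-fold, adjusted p = 5.46e-13) and -3.90 in Ctrl (at least 9.68-fold, adjusted p = 6.54e-12) on its dimmer probe, and -3.02 and -2.79 on its brighter one. *Hoxd10* gave -4.45 in Aey69 (at least 13.4-fold, adjusted p = 2.05e-09) and -3.57 in Ctrl (adjusted p = 2.67e-07). Ctrl array 4 was again the exception for *Hoxc9*, at 7.72 beside 4.0, 4.17 and 4.14, and for *Hoxd10*, at 7.58 beside 4.45, 4.66 and 4.64. Counts of lower Hox genes were between 20 and 23 in Aey69 and between 14 and 21 in Ctrl when single arrays were left out, with 21 without Ctrl array 4.

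**Figure D2:**
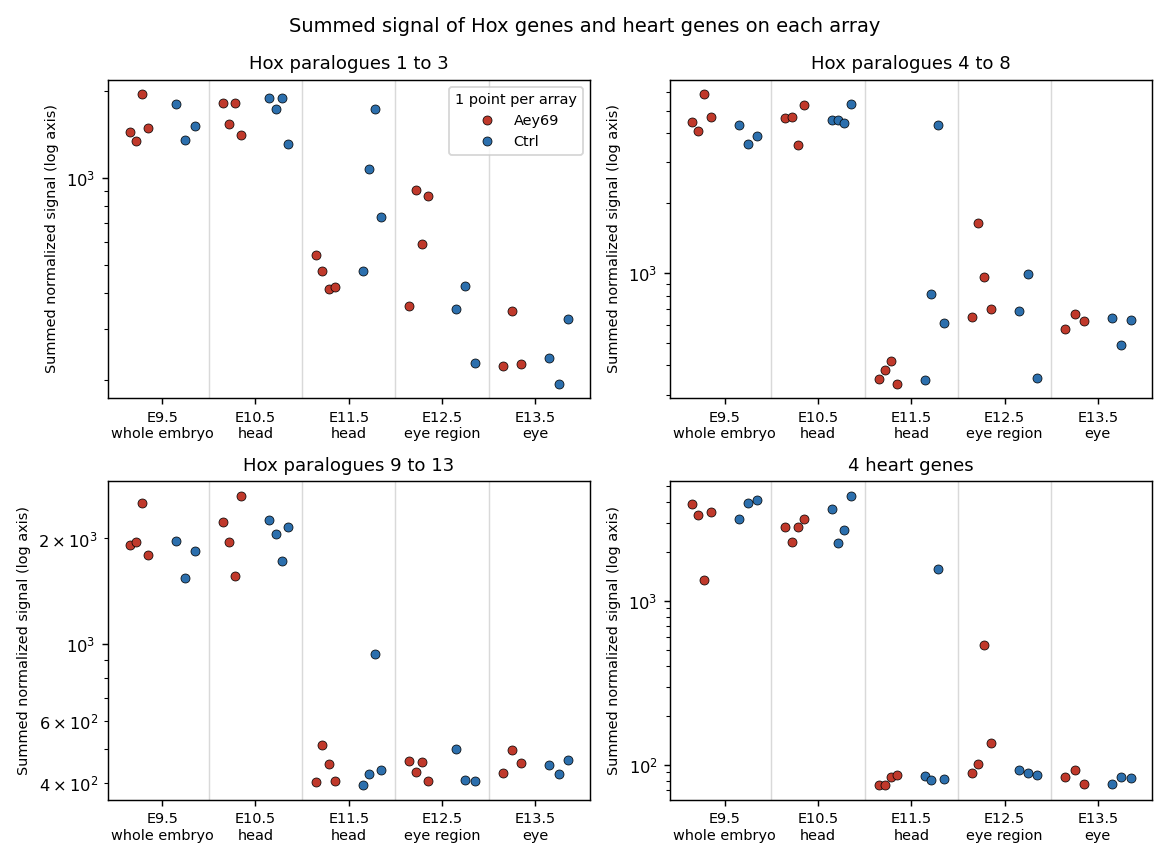
Summed normalized signal on a logarithmic axis of the anterior (paralogues 1 to 3), central (4 to 8) and posterior (9 to 13) Hox genes and of 4 heart genes, 1 point per array, by stage with Aey69 left of Ctrl. At E11.5 the Ctrl array numbered 4 lies at 4356 for the central genes, where the other 3 Ctrl heads lie between 347.9 and 814.1, and at 1565 for the heart genes.

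Anterior genes were among those that fell. *Hoxb1* was lower at E11.5 by -2.23 on the log2 scale in Aey69 (adjusted p = 1.26e-08) and -1.90 in Ctrl (adjusted p = 5.62e-07). *Hoxb2*, which acts with *Hoxb1* in the facial motor neurons, had -1.93 (adjusted p = 0.000203) and -1.03 (adjusted p = 0.0733). *Hoxa2* had -1.62 in Aey69 (adjusted p = 0.00974) and -0.50 in Ctrl (adjusted p = 0.653), and *Hoxd3*, a gene of the first neck vertebra, had -2.98 (adjusted p = 4.24e-05) and -1.31 (adjusted p = 0.105), so that both passed in Aey69 and did not in Ctrl. The difference between the genotypes itself was not past the test for any of 25 Hox genes in this step, beside 0.0104% of all genes. At an unadjusted p under 0.05, 6 were lower, *Hoxa2*, *Hoxa5*, *Hoxb5*, *Hoxd3*, *Hoxd4* and *Hoxd12*, beside 2.67% of all genes (adjusted p = 0.874 each).

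*Hoxa13*, a gene of the digits and hindgut, was not among the genes that fell. Its brightest probe had 5.85, 6.70, 6.29 and 5.83 in the Aey69 heads at E11.5 and 6.02, 6.03, 6.01 and 6.17 in Ctrl, against ranges of 5.71 to 6.09 and 5.77 to 6.35 at E10.5. It stayed near this level in the eye regions (5.97, 6.0, 6.35 and 5.93 in Aey69, 6.47, 5.63 and 5.71 in Ctrl) and in the eyes (5.75, 5.72 and 5.73 in Aey69, 5.77, 5.76 and 5.75 in Ctrl). The other 2 probes of *Hoxa13* were hardly ever detected, so that the presence of the gene in every group rests on 1 of 3 probes. *Hoxc10* was similar in that its brighter probe was detected in most later groups while the other was detected in none after E10.5. The brighter *Hoxc10* probe had 5.82, 5.38, 5.54 and 4.93 in the Aey69 eye regions, against 5.71, 5.44 and 5.25 in Ctrl, and 5.08, 5.25 and 5.24 in the Aey69 eyes, against 5.24, 5.27 and 5.11 in Ctrl.

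Within E11.5 most detected Hox genes had lower signals in the Aey69 heads, but no difference passed the test. None of 13 detected Hox genes was called, beside 0.0975% of all genes. At an unadjusted p under 0.05, 7 of the 13 were lower in Aey69, against 5.59% of all genes, and none was higher. Of the 13, 11 lay below Ctrl and 2 above, and their median log2 difference was -0.92, against 0.06 over all genes. Since 7 of the 13 were detected in the Ctrl group alone and 1 in the Aey69 group alone, most entered the test through Ctrl, and these counts and this median are a description. *Hoxa2* had 7.67, 7.38, 7.20 and 7.18 in Aey69, against 7.62, 8.67, 9.45 and 8.20 in Ctrl, a log2 difference of -1.13 ± 0.32 (adjusted p = 0.658). *Hoxb2* had 7.40, 7.28, 6.86 and 6.93, against 6.96, 8.43, 9.01 and 7.77 in Ctrl (-0.92, the same adjusted p). In both genes the lowest Ctrl head lay among the Aey69 heads and the other 3 above them.

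The same Ctrl head was low for most of the other genes. *Hoxd3* had 5.83, 5.03, 5.07 and 4.63 in Aey69 heads, of which only the first was detected, against 5.39, 7.25, 8.38 and 6.78 in Ctrl (-1.81 ± 0.51). *Hoxb5* had 4.91, 4.95, 4.84 and 4.58 in Aey69, none detected, against 4.85, 7.82, 9.92 and 7.04 in Ctrl (-2.59 ± 0.79), and *Hoxa5* had 3.89, 4.00, 4.39 and 4.25, none detected, against 4.25, 6.42, 9.79 and 6.21 (-2.54 ± 0.87). In both genes 3 of the 4 Ctrl heads lay above every Aey69 head.

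*Hoxb4* and *Hoxd4* had the same shape. *Hoxb4* had 4.50, 4.86, 5.15 and 4.25 in Aey69, none detected, against 4.31, 6.67, 7.27 and 5.54 in Ctrl (-1.26), and *Hoxd4* had 4.50, 4.77, 4.58 and 4.31, none detected, against 4.25, 6.75, 8.21 and 6.32 (-1.84). All of these carried an adjusted p of 0.658. *Hoxd11* (0.12, adjusted p = 0.806) and *Hoxa13* (0.11, adjusted p = 0.863) had the smallest p among genes above Ctrl. *Hoxb3*, a gene of the posterior hindbrain, was detected in Ctrl on its brighter probe (5.06, 5.19, 5.78 and 4.76) and not in Aey69, and in Aey69 on its other probe.

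Ctrl array 4, the head with heart RNA, had the highest signal of these genes. Without it, 5 of 13 genes were lower at an unadjusted p under 0.05, beside 1.73% of all genes, *Hoxa5* (-1.50), *Hoxb5* (-1.75), *Hoxd3* (-1.33), *Hoxd4* (-1.23) and *Hoxa2* (-0.81), with an adjusted p of 0.937, and the median over the 13 was -0.60. The 12 Hox genes detected in the Ctrl group were the same with and without this array, which on its own detected 27. The other 3 Ctrl heads, whose heart gene sums lay within the range of the Aey69 heads, detected 7, 14 and 12 Hox genes. Markers of trunk mesoderm, 4 of 10 detected in each genotype, also lay lower in Aey69, with a median log2 difference of -0.51, against 0.06 over all genes, and none of them was called. Their summed signal was 439.1 to 665.2 in the Aey69 heads and 596.8, 773, 1130 and 633.7 in the Ctrl heads. The 4 Ctrl heads stood in the same order in this sum as in the sum over the Hox genes (1220, 2312, 7019 and 1779). The Aey69 heads did not, with trunk mesoderm sums of 439.1, 632.9, 665.2 and 532.5 beside Hox sums of 1294, 1374, 1288 and 1159. *Pax1*, *Pax3* and *Myf5* of this list were detected on no head at E11.5, and the part of trunk tissue in the Hox values was not tested.

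At E12.5 the pattern between the genotypes was the other way round, with the Aey69 eye regions above Ctrl in 11 of 13 detected Hox genes. The median log2 difference was 0.83, against 0.04 over all genes, and 3 of the 13 were detected in the Aey69 group alone and 1 in the Ctrl group alone. *Hoxb1* alone passed the test, 1 of 13 beside 0.0932% of all genes. Being detected in the Aey69 group alone, *Hoxb1* entered the test through the group where it was high. These counts, this share and this median are therefore a description. *Hoxb1* had 5.37, 5.26, 5.24 and 5.47 in the Aey69 eye regions, detected on all 4, against 4.31, 3.97 and 4.35 in the Ctrl eye regions, detected on none. The groups did not overlap, and the log2 difference was 1.12 ± 0.15 (adjusted p = 0.0438, at least 1.18-fold). The second *Hoxb1* probe averaged 4.93 in Aey69, detected on 1 of 4 arrays, and 4.41 in Ctrl, detected on none. The *Hoxb1* call was lost when any of 6 of the 7 arrays was left out (adjusted p = 0.15 to 0.205), and it was kept only without Ctrl array 2 (adjusted p = 0.00277).

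The excluded Ctrl eye region of E12.5 bears on this gene, since *Hoxb1* was among 6 Hox genes detected there and on no kept Ctrl eye region. With the excluded arrays in the fit, the adjusted p of *Hoxb1* was 0.394. At an unadjusted p under 0.05, 3 genes were higher in Aey69, beside 9.83% of all genes, *Hoxb1*, *Hoxb2* and *Hoxb4*, and none was lower. *Hoxb2* had 6.73, 8.28, 7.60 and 8.07 in Aey69, against 6.21, 6.46 and 5.60 in Ctrl, without overlap (1.58 ± 0.37, adjusted p = 0.236). *Hoxb4* had 6.21, 7.60, 7.41 and 6.78, against 6.86, 5.72 and 4.12 in Ctrl, with overlap (1.44 ± 0.59, adjusted p = 0.504).

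The remaining anterior and central genes had wide spreads in both genotypes. *Hoxa2* had 6.85, 8.34, 7.32 and 8.33 in Aey69, against 7.29, 7.42 and 5.67 in Ctrl (0.91 ± 0.51, adjusted p = 0.622). *Hoxd3* had 4.79, 7.19, 6.80 and 7.18, against 5.28, 6.16 and 4.54 in Ctrl (1.17 ± 0.61, adjusted p = 0.598). *Hoxb5* had 7.29, 9.34, 8.26 and 7.09, against 6.42, 8.29 and 4.83 in Ctrl (1.48 ± 0.80, adjusted p = 0.61). In each of these 3 genes the lowest Ctrl array was the same one, number 5, and the genotypes overlapped.

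*Hoxa5* had 6.08, 7.68, 6.33 and 5.86 in the Aey69 eye regions, against 4.93, 7.77 and 4.29 in Ctrl (0.83 ± 0.78, adjusted p = 0.815), and *Hoxd4* had 5.41, 7.54, 6.93 and 6.62, against 7.30, 5.86 and 4.29 in Ctrl (0.81 ± 0.69, adjusted p = 0.789). *Hoxa4*, a gene of the neck and upper thorax, had 5.53, 6.42, 5.89 and 5.78, against 5.60, 5.61 and 4.95 (0.52 ± 0.25, adjusted p = 0.566). The genotypes overlapped in all 3 genes. *Hoxc4* (-0.09, adjusted p = 0.946), *Hoxc10* (-0.05, adjusted p = 0.976), *Hoxc13* (0.06, adjusted p = 0.96) and *Hoxa13* (0.13, adjusted p = 0.922) were near 0. *Hoxc13*, which acts in hair and nail, had 5.41, 5.26, 5.34 and 4.89 in Aey69, against 5.35, 5.0 and 5.16 in Ctrl, and *Hoxc4* had 5.41, 5.41, 5.02 and 4.84, against 5.60, 5.09 and 5.09 in Ctrl. *Hoxc8*, a gene of the lower neck and forelimb motor neurons, was detected on 2 of 4 Aey69 arrays, at 5.32 and 5.18, and on no Ctrl array.

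Markers of other tissues differed between these groups as well. The eye list, 10 genes of lens and retina, had summed signals of 418.9 to 504.3 in the Aey69 eye regions and 2094 to 3072 in Ctrl, and 2 of its genes were called lower, *Cryba1* (log2 difference -4.48) and *Cryaa* (-3.25, at least 6.06-fold), both of the lens. The globin genes of red cells summed to 4096 to 13000 in Aey69 and to 3686, 48550 and 40410 in Ctrl. Markers of limb and lateral plate mesoderm summed to 3279 to 3856 in Aey69 and to 9838, 3062 and 3738 in Ctrl, so that Ctrl array 2 stood apart. Markers of trunk mesoderm, 4 of 10 detected in Aey69 and 8 in Ctrl, lay lower in Aey69, unlike the Hox genes. Their median log2 difference was -0.42, against 0.04 over all genes, and none was called. Their sums overlapped, at 665.4 to 829 in Aey69 and 580.5 to 994.2 in Ctrl. The part of these tissues in the values of the Hox genes was not tested.

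**Figure D3:**
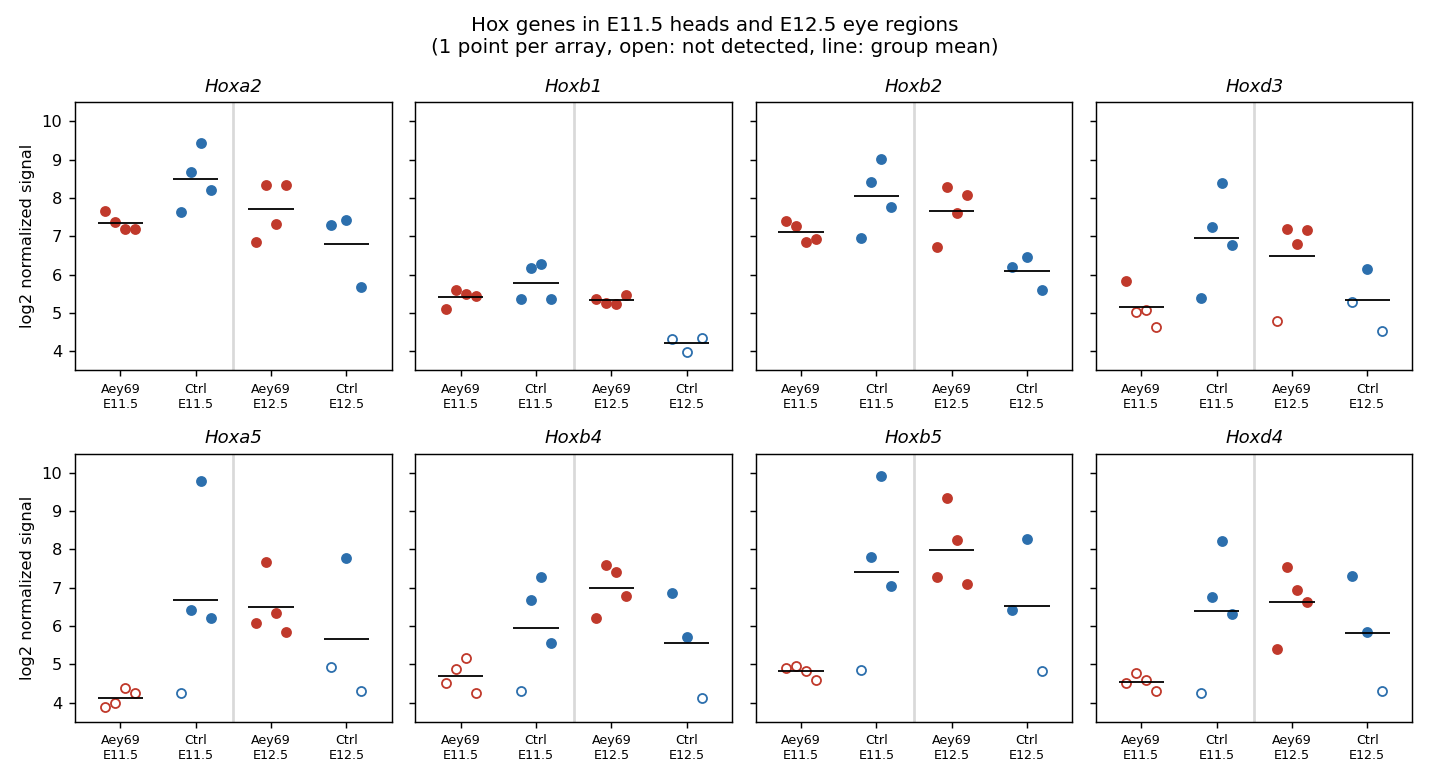
Log2 normalized signal of 8 Hox genes at E11.5 (head) and E12.5 (eye region), with Aey69 left of Ctrl, 1 point per array, open where the gene was not detected, and a line at the group mean. Aey69 means lie below Ctrl at E11.5 and above Ctrl at E12.5 in all 8 genes, and the groups overlap at E12.5 in all but Hoxb1 and Hoxb2.

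The change from head to eye region, E12.5 against E11.5, thus ran differently in the genotypes. These comparisons share the arrays of both stages with those within a stage, and they confound stage with the tissue taken. In Ctrl, 5 of 14 Hox genes were lower at E12.5, beside 8.4% of all genes, all of them anterior. Of these, *Hoxb1*, *Hoxb3* and *Hoxd3* were detected in the Ctrl group at E11.5 only and entered the test through that stage. *Hoxb2* differed by -1.95 ± 0.37 (adjusted p = 0.00103), *Hoxa2* by -1.89 ± 0.41 on its dimmer probe (adjusted p = 0.00416), *Hoxd3* by -1.62 ± 0.50 (adjusted p = 0.0472), *Hoxb1* by -1.58 ± 0.23 (adjusted p = 3.73e-05, at least 1.62-fold) and *Hoxb3* by -0.60 ± 0.19 (adjusted p = 0.0575, at least 1.07-fold). In Aey69 the same probes gave 0.55 for *Hoxb2* (adjusted p = 0.475), 0.21 for *Hoxa2* (0.867), 1.35 for *Hoxd3* (0.107), -0.08 for *Hoxb1* (0.92) and 0.07 for *Hoxb3* (0.918). Without Ctrl array 4 of E11.5, 3 genes were lower, and *Hoxd3* (-1.15, adjusted p = 0.232) and *Hoxb3* (-0.41, adjusted p = 0.271) were not past the test.

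In Aey69 the called genes were central and the direction was up. There, 4 of 14 were higher at E12.5, beside 8.56% of all genes, *Hoxb5* by 3.17 (adjusted p = 0.00248, at least 6.93-fold), *Hoxa5* by 2.36 (adjusted p = 0.0301, at least 2.44-fold), *Hoxb4* by 2.31 (adjusted p = 0.00504, at least 3.48-fold) and *Hoxd4* by 2.09 (adjusted p = 0.0175, at least 2.69-fold). None of these was detected on any Aey69 head at E11.5, and each was detected on all 4 Aey69 eye regions, so that they entered the test only through the stage where they were high, and nothing is read from their share. All 4 belong to paralogue groups 4 and 5. *Hoxc6*, of the next paralogue group, was detected on 1 of the 4 Aey69 eye regions, at 5.34, and on no Ctrl eye region.

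The difference between the genotypes in this step passed the test for 4 of 15 Hox genes, beside 0.224% of all genes. Taking the Aey69 minus Ctrl difference at E12.5 minus that at E11.5, *Hoxb2* gave 2.50 ± 0.50 (adjusted p = 0.0133), *Hoxb1* 1.51 ± 0.31 (adjusted p = 0.0163), *Hoxb5* 4.07 ± 0.92 (adjusted p = 0.0436) and *Hoxd3* 2.97 ± 0.69 (adjusted p = 0.0497). *Hoxb2* was detected in each of these groups. *Hoxd3* was detected in the Ctrl head and Aey69 eye region groups alone, whose high signals raise this difference. *Hoxb5* was undetected in the Aey69 heads and *Hoxb1* in the Ctrl eye regions, whose low signals do the same. The detection filter thus favoured this direction, and nothing is read from the share of Hox genes. With the excluded arrays in the fit all 4 calls were lost, at 2.21 for *Hoxb2* (adjusted p = 0.558), 1.18 for *Hoxb1* (adjusted p = 1), 3.72 for *Hoxb5* (adjusted p = 0.588) and 2.63 for *Hoxd3* (adjusted p = 0.761). *Hoxb1* was also lost with normexp background correction (1.20, adjusted p = 0.108) and with 50 added to the signals (0.81, adjusted p = 0.183). Leaving out both arrays with heart genes, Ctrl array 4 of E11.5 and Aey69 array 4 of E12.5, kept *Hoxb2* (2.21, adjusted p = 0.0867) and *Hoxb1* (1.38, adjusted p = 0.0929) and lost *Hoxb5* (3.14, adjusted p = 0.201) and *Hoxd3* (2.39, adjusted p = 0.29). Of 9 hindbrain markers on the array, 5 were detected in these groups, and 1, *Phox2a*, a gene of hindbrain motor neurons, differed in the same direction (1.57, adjusted p = 0.0939), with -1.32 in Ctrl (adjusted p = 0.00393) and 0.25 in Aey69 (adjusted p = 0.731) between the stages. The list as a whole did not follow *Phox2a*. The median genotype difference of its detected markers changed by -0.107, against 0.012 over all genes. The summed signal of the hindbrain markers ran from 2215 to 2619 in the Aey69 and 2644 to 3208 in the Ctrl eye regions, and from 2419 to 2788 in the Aey69 and 2633 to 3213 in the Ctrl heads at E11.5. *Fgf3*, *Atoh1* and *Gbx1* were detected on no array of these groups, and the part of the amount of hindbrain in the values of the Hox genes was not tested. The count also depended on single arrays, from 2 without Ctrl array 3 of E11.5, Ctrl array 5 of E12.5 or Aey69 array 3 of E12.5 to 9 without Ctrl array 2 of E11.5.

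In eyes at E13.5 the composition of the detected Hox genes was another one. Cluster d supplied *Hoxd1*, *Hoxd3*, *Hoxd4*, *Hoxd8* and *Hoxd9* in both genotypes. *Hoxd8* had 7.29, 7.71 and 7.65 in the Aey69 eyes and 7.65, 6.70 and 7.35 in the Ctrl eyes, while it had been undetected on all 7 eye regions at E12.5, at 4.38, 4.70, 4.23 and 4.64 in Aey69 and 4.41, 4.97 and 4.89 in Ctrl. It was higher at E13.5 than at E12.5 by 3.06 ± 0.33 in Aey69 (adjusted p = 2.71e-08, at least 5.34-fold) and by 2.48 ± 0.35 in Ctrl (adjusted p = 7.99e-06, at least 4.4-fold). Of the 6 eyes, 5 lay within the range of the E9.5 embryos and 1 Ctrl eye lay below it, with 7.20, 7.21, 7.23 and 7.14 in Aey69 and 7.86, 7.31 and 7.41 in Ctrl embryos.

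*Hoxd1*, which in the mouse acts in pain-sensing neurons, was detected on no array before E13.5 and on every kept eye, at 5.36, 5.43 and 5.54 in Aey69 and 5.54, 5.16 and 5.51 in Ctrl. At E12.5 it had 4.12, 4.53, 4.70 and 4.58 in Aey69 and 4.31, 4.48 and 4.62 in Ctrl. It rose by 0.96 ± 0.17 in Aey69 (adjusted p = 7.08e-05) and 0.93 ± 0.18 in Ctrl (adjusted p = 0.000486), at least 1.24-fold in both. *Hoxd9*, a gene of the upper forelimb, had 5.40, 5.86 and 5.70 in the Aey69 eyes, higher than in the eye regions by 0.98 ± 0.34 (adjusted p = 0.0418, at least 1.43-fold), and 5.60, 5.19 and 5.86 in the Ctrl eyes, with a difference of 0.90 (adjusted p = 0.126). These gave 3 of 18 higher in Aey69, beside 22% of all genes, and 2 of 15 in Ctrl, beside 14.8%, shares of the family that are not above those of all genes. Each called gene was detected in its group at E13.5 only and entered the test through that stage.

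The genes that were called lower in the eyes were anterior and central ones of clusters a and b. In Aey69, 6 of 18 were lower at E13.5 than at E12.5, beside 24.8% of all genes, *Hoxa2* by -2.20 ± 0.46 (adjusted p = 0.000641), *Hoxa4* by -0.89 (adjusted p = 0.0078), *Hoxb1* by -1.16 (adjusted p = 0.000273, at least 1.25-fold), *Hoxb2* by -2.44 (adjusted p = 7.75e-06), *Hoxb4* by -2.52 (adjusted p = 0.000694, at least 3.97-fold) and *Hoxb5* by -3.31 (adjusted p = 0.000451, at least 7.9-fold). Of these, *Hoxa2*, *Hoxb1*, *Hoxb4* and *Hoxb5* were detected in the Aey69 group at E12.5 only. They entered the test through that stage, where they were high, and nothing is read from this share. In Ctrl, 1 of 15 was lower, beside 12%, *Hoxa2* by -1.58 ± 0.49 (adjusted p = 0.0338), which likewise entered through E12.5 alone. There, *Hoxb5* gave -1.68 (adjusted p = 0.15) and *Hoxb2* -0.59 (adjusted p = 0.419), neither past the test. *Hoxb1* was detected on none of the eyes, at 4.22, 4.25 and 4.07 in Aey69 and 4.45, 4.20 and 4.29 in Ctrl. It was the 1 gene of 19 whose step differed between the genotypes, beside 1.7% of all genes, by -1.26 ± 0.33 (adjusted p = 0.0579). Being detected in the Aey69 eye regions alone, it entered this test through the group where it was high, and nothing is read from this share. The *Hoxb1* call was lost in 6 of the 13 fits that left out 1 array of these stages, with adjusted p values from 0.0413 to 0.163.

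Between the genotypes at E13.5 no Hox gene of 15 passed, beside 1.95% of all genes. At an unadjusted p under 0.05, 1 Hox gene differed in either direction, beside 26.5% of all genes. It was *Hoxc4*, with 4.82, 4.90 and 4.73 in the Aey69 eyes, none detected, against 5.60, 5.03 and 5.49 in Ctrl, all detected (-0.56 ± 0.16, adjusted p = 0.177, at least 1.29-fold). *Hoxa7*, a thoracic gene, had 5.01, 5.04 and 5.35 in Aey69, against 4.95, 4.88 and 4.80 in Ctrl (0.25, adjusted p = 0.379, at least 1.08-fold), and *Hoxa5* had 5.65, 6.12 and 5.64, against 5.60, 5.16 and 5.61 (0.34, adjusted p = 0.4). *Hoxa4* had 4.93, 5.13 and 4.98, against 5.12, 5.16 and 5.51 in Ctrl (-0.25, adjusted p = 0.414). The groups of *Hoxc4* and *Hoxa7* did not overlap, from which nothing is read, since overlap was not counted over all genes. The values of *Hoxa7* also lie close to the limit of detection.

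The cluster d genes that appeared in the eye were alike in level in both genotypes within the spread of the arrays. *Hoxd8* differed by 0.32 ± 0.24 (adjusted p = 0.56), *Hoxd1* by 0.04 ± 0.14 (adjusted p = 0.929) and *Hoxd9* by 0.10 (adjusted p = 0.844). *Hoxd3* had 5.73, 5.98 and 5.83 in Aey69, against 5.34, 5.10 and 6.19 in Ctrl (0.30, adjusted p = 0.611), and *Hoxd4* had 6.12, 6.05 and 6.09, against 6.08, 5.65 and 6.24 (0.09, adjusted p = 0.819). *Hoxd11*, which acts in the forearm, was detected in Aey69 (4.90, 5.33 and 5.05) and not in Ctrl (4.95, 4.41 and 5.04), with overlap (0.30, adjusted p = 0.494).

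The remaining genes at E13.5 also overlapped between the genotypes. *Hoxb2* had 5.11, 5.59 and 4.98 in Aey69, against 5.49, 4.91 and 6.11 in Ctrl (-0.28, adjusted p = 0.694). *Hoxc8* had 5.14, 4.90 and 4.98, against 5.21, 4.84 and 4.80, and *Hoxc13* had 5.30, 5.36 and 5.14, against 5.21, 5.19 and 5.38. *Hoxa2* was detected on 1 eye of each genotype, at 6.92 in Aey69 and 6.12 in Ctrl. The lens genes differed at this stage (summed signal of the eye list 1624 to 1791 in Aey69 and 26770 to 34130 in Ctrl, with the log2 difference of *Cryaa* at -8.54), and the part of the lens in the values of the Hox genes was not tested.

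**Figure D4:**
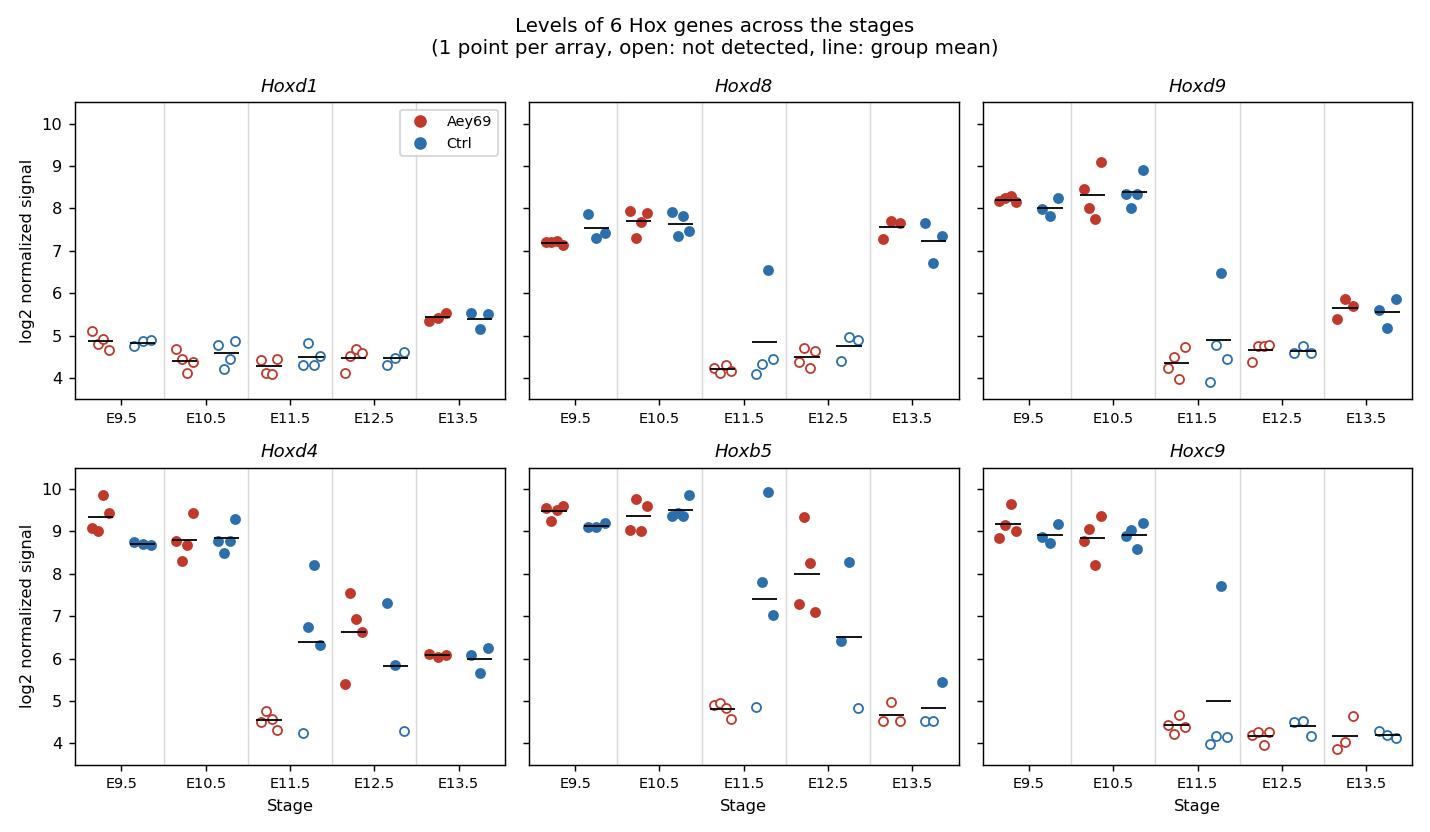
Log2 normalized signal of 6 Hox genes over the 5 stages, with Aey69 left of Ctrl, 1 point per array, open where the gene was not detected. Hoxd1, Hoxd8 and Hoxd9 are detected in the eyes at E13.5 after being undetected at E12.5, whereas Hoxc9 is not detected in the eyes.

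Proteins and genes that work with the Hox family were described from lists of known members. The TALE cofactors (Meis, Pbx and Pknox genes), which bind DNA with Hox proteins, were all 7 detected in every group, with summed signals from 4665 to 7654, and 0 of 7 differed between the genotypes at any stage. Over all genes, in stage order, the share called was 0%, 0%, 0.0975%, 0.622% and 1.95%, and the share at an unadjusted p under 0.05 was 12.9%, 1.48%, 11.7%, 17.5% and 26.5%. Of the 7 cofactors, 2, 0, 1, 1 and 5 reached that unadjusted p over the same stages. In the step from E10.5 to E11.5, where 21 Hox genes fell in Aey69, 3 of 7 cofactors fell, *Meis1* (-0.64), *Meis2* (-0.48) and *Pknox2* (-0.44), beside 15.8% of all genes, and in Ctrl 0 of 7, beside 6.93%. In the eyes at E13.5 against E12.5, Aey69 had 3 of 7 lower, *Meis3* (-0.88), *Pbx2* (-1.18) and *Pknox2* (-0.59), beside 24.8% of all genes. Ctrl had 2 lower, *Meis2* (-0.64) and *Meis3* (-0.89), beside 12%, and 1 higher, *Meis1* (0.58), beside 14.8%.

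Regulators upstream of the clusters gave 0 calls between the genotypes among 10 retinoic acid pathway and Cdx genes at every stage, with 0 to 3 at an unadjusted p under 0.05, the 3 at E12.5, where 17.5% of all genes reached it. *Cdx2*, which activates central and posterior Hox genes in the tailbud, was lower in E10.5 heads than in E9.5 embryos by -2.14 in Aey69 and -2.55 in Ctrl and was detected on no head at E11.5, where it was lower again by at least 3.8-fold in Aey69 and 3.79-fold in Ctrl. *Aldh1a2*, the main enzyme of retinoic acid synthesis in the embryo, was lower at E11.5 by -1.02 in Aey69 and -1.16 in Ctrl, and higher in the eyes at E13.5 than in the eye regions at E12.5 by 1.72 in Aey69 and 0.67 in Ctrl, as was *Rarb*, a retinoic acid receptor, by 1.38 in both. Polycomb and Trithorax genes, 16 on the array, which hold Hox genes silent or active, gave 0 calls between the genotypes at any stage, with 6 of 14 detected at an unadjusted p under 0.05 at E12.5, beside 17.5% of all genes, 5 of 15 at E13.5, beside 26.5%, and at most 2 at the other stages. Among the genes that flank the clusters, 6 of 10 were detected and 0 differed between the genotypes, with at most 2 at an unadjusted p under 0.05, at E11.5 and at E13.5, beside 11.7% and 26.5% of all genes. Of these neighbours, *Skap2*, beside cluster a, was lower at E11.5 than at E10.5 by -1.73 in Aey69 and -1.47 in Ctrl, and *Evx1*, next to *Hoxa13*, was lower at E13.5 than at E12.5 by -2.34 and -1.69.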

How the data were processed

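RNA from 40 samples had been labelled (TotalPrep) and hybridized to Illumina MouseRef-8 v2.0 BeadChips, and only RNA of sufficient integrity was used. The authors deposited background-subtracted intensity values per probe and array from GenomeStudio, with detection p-values, and a second table of quantile-normalized intensity values made with CARMAweb. The deposited p-values served only to call detection. Precision is limited by how many arrays a group holds. The deposited signals ran from -21 to 28964, so 22 was added before the 36 kept arrays were quantile-normalized and log2-transformed. Tests were run in R 4.3.3 with limma 3.58.1 (lmFit, eBayes) and Benjamini-Hochberg adjustment over 25697 probes. Genotypes were compared within each stage, and steps between stages and differences of genotype effects came from 1 model of the 10 groups. A gene was called when any of its probes passed. Array numbers are those of the deposited signal table. The scripts were tested on simulated data, and figures were drawn with matplotlib 3.10.9 in Python 3.11.15.

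Probes were named through the platform annotation (23978 with 1 gene, 1719 with none). Genes given with full statistics were those called between the genotypes, the 2 with the smallest p in each direction at a stage with no call, up to 5 per direction with the largest change in a step of the controls, and every Hox gene detected at E12.5 or E13.5. The members, the lists and these rules were chosen with earlier results of these data known. Samples of the same replicate number deviated together at E9.5, with correlations of 0.482, 0.475 and 0.126 in the second table. The same held at E10.5, with 0.574, 0.653, 0.0726 and 0.818. At both stages each Aey69 sample with a Ctrl sample of its number correlated best with that sample. From E11.5 on this did not hold for every number. The main tests carried no replicate block, and adding one changed no Hox call at E9.5 or E10.5. Promoters came from RefSeq on GRCm38.p6, and 22 of the 38 genes had one. Alternatives were the authors' normalized table, median scaling, normexp (offset 16), an added 50, no detection filter or a stricter one, the brightest probe alone, the excluded arrays, 1 model for all genotype tests and single arrays left out.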

Additional observations from a re-analysis of the deposited data

Results flagged for a closer look

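In the 6 groups of 4 arrays, 24 measures (Hox sums and named genes) were examined for a single array far from the others, and 20 of 144 stood apart by Dixon's ratio. For a single measure chance gives this in about 1 of 20. The 144 share arrays, and the sums contain the named genes, so they are not independent. Their count cannot be set against that rate. The ratio given is the gap to the nearest array over the range of the group. In the Ctrl heads at E11.5, array 4 stood apart in the sum of the central genes (4356 against 347.9 to 814.1, ratio 0.884), the sum of the posterior genes (932.2 against 393.9 to 435.9, 0.922), *Hoxa7* (log2 signal 7.64 against 4.38 to 4.80, 0.872), *Hoxc6* (9.92 against 4.00 to 4.38, 0.935) and *Hoxd8* (6.55 against 4.09 to 4.45, 0.853), and array 5 in *Hoxa13* (6.17 against 6.01 to 6.03, 0.867). Array 4 was the one with heart genes at a sum of 1565.

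In the Ctrl heads at E10.5, array 5 stood apart, above the others in the sum of the central genes (5361 against 4413 to 4562, 0.842), *Hoxa7* (9.28, 0.894), *Hoxa13* (6.35, 0.836), *Hoxb4* (8.73, 0.933), *Hoxb5* (9.85, 0.842) and *Hoxc4* (5.44, 0.844), and below them in *Hoxa2* (8.49 against 9.11 to 9.2, 0.883). This array also had the lowest sum of red-cell globin genes of its group, 3341, where the highest was 51670, and the part of the red cells in these values was not tested. In the Aey69 heads at E10.5, array 4 was low for *Hoxc6* (9.41 against 10.15 to 10.26, 0.872).

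Among the Aey69 heads at E11.5, array 3 was high for *Hoxc10* (6.13 against 4.91 to 5.11, 0.84) and *Hoxc13* (5.25, 0.95), and array 5 low for *Hoxd11* (4.79, 0.886). Among the Aey69 eye regions at E12.5, array 1 was low for *Hoxd3* (4.79 against 6.80 to 7.19, 0.836) and *Hoxd9* (4.38, 0.922), and array 4 high for *Hoxa13* (6.35, 0.832).

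Between stages, the genotype difference changed past the test for *Hoxb2* (2.50), *Hoxb1* (1.51), *Hoxb5* (4.07) and *Hoxd3* (2.97) at E12.5 against E11.5, and for *Hoxb1* (-1.26) at E13.5 against E12.5. Of the 4 arrays excluded by the authors, 3 held Hox signals that no kept Ctrl array of the stage had. The excluded Ctrl embryo of E9.5 held 0 such genes and detected 16 Hox genes, against 21 to 25 on the kept ones. The excluded Ctrl eye region of E12.5 detected 17 Hox genes, against 7 to 14 on the kept ones, 6 of them on no kept Ctrl array (*Hoxb1*, *Hoxb3*, *Hoxc6*, *Hoxd9*, *Hoxd10* and *Hoxd12*). The excluded Ctrl eye of E13.5, with 26.2% of probes detected, had 2 such genes (*Hoxa7* and *Hoxd10*), and the excluded Aey69 eye had 1 (*Hoxa7*), a gene also detected on 2 of the 3 kept Aey69 eyes.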

How the results depend on the processing

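Of the alternatives for named Hox genes other than single arrays left out, 455 kept direction and side of the threshold, 31 lost and 4 gained the call, and 4 turned sign. With single arrays left out these counts were 379, 47, 6 and 3. The cause of a change was not tested. Signs turned for *Hoxa13* at E11.5 (-0.077 under median scaling, -0.066 to 0.226 with single arrays left out, lowest without Aey69 array 3), for *Hoxa7* (-0.249) and *Hoxa4* (0.131) at E13.5 and *Hoxb1* in Ctrl at E10.5 against E9.5 (0.128) with the excluded arrays, and in Aey69 at E12.5 against E11.5 for *Hoxa2* (-0.00709 to 0.541) and *Hoxb3* (-0.0224 to 0.187), both lowest without Aey69 array 3 of E12.5.

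The 1 genotype call at E12.5, *Hoxb1*, became 0 under median scaling, the stricter detection (p under 0.01 on every array), with the excluded arrays, without both heart gene arrays (chosen after seeing the data) and with the replicate block, and 2 in 1 model for all groups. The adjusted p of *Hoxb1* ran from 0.00277 to 0.809 over all alternatives, the last with the replicate block (1.06), where the numbers did not pair the samples at E12.5 (correlations -0.368, 0.00912 and -0.57). Counts of Hox genes with the replicate block were 0 at every stage. At E10.5 against E9.5 in Aey69 the count of 1 became 2 under median scaling, 2 with normexp, 3 with an added 50 and 0 with the excluded arrays. The excluded arrays gave 13 at E11.5 against E10.5 in Ctrl, 1 in Ctrl and 2 in Aey69 at E12.5 against E11.5, 5 at E13.5 against E12.5 in Ctrl, and 0 for the genotype difference of both later steps. The stricter detection gave 3 at E12.5 against E11.5 in Ctrl and 0 for the genotype difference at E13.5 minus E12.5, which was also 0 with an added 50. Without both heart gene arrays, 3 remained in Ctrl at E12.5 against E11.5 and 2 in the genotype difference of that step.

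Leaving out single arrays gave 0 to 4 calls between genotypes at E12.5, 0 to 1 at E13.5 and 0 at the earlier stages. For the steps it gave 0 to 4 in Aey69 and 1 to 3 in Ctrl (E10.5), 20 to 23 and 14 to 21 (E11.5), 3 to 6 and 3 to 6 (E12.5), and 8 to 9 and 2 to 5 (E13.5), and for the genotype differences 0, 0, 2 to 9 and 0 to 2. Under the stricter detection the heads of E11.5 detected 3 Hox genes in Aey69 and 4 in Ctrl, and the eye regions and eyes 7 each in Aey69 and 3 each in Ctrl. Counting any detected array gave 11 in Aey69 and 28 in Ctrl for the heads and 16 for the Ctrl eye regions. BeadChip and scan date were not in the sources used here, so neither was fitted as a block.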
